A study of Mus musculus with 4 samples.

Results

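Costimulatory and coinhibitory molecules are the surface proteins through which a macrophage or dendritic cell tunes a T cell that has recognised its antigen. The group described here is the 10 genes Cd40, Cd80, Cd86, Cd83, Cd274, Pdcd1lg2, Icam1, Icosl, Slamf1 and Slamf7. Its members are the probes of the array whose gene name is one of these symbols, which gave 12 of 55681 non-control probes and 10 of 36095 gene names. All 10 genes had a probe, and Cd80 and Pdcd1lg2 had 2 each. Expression was measured on 4 Agilent 1-colour arrays in RAW264.7, an established mouse macrophage-like line. All 4 cultures carried a stably integrated vector that expresses an artificial microRNA together with a green fluorescent protein, selected with 6 µg/mL blasticidin as bulk cultures and not as single clones. The vector held either a scramble sequence or one against Linc-AAM (a lincRNA of activated macrophages), and each line was kept for 4 h in DMEM medium alone or with 50 µg/mL AEPS, a polysaccharide from the roots of Actinidia eriantha. This gives 4 groups of 1 array.

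In the textbook scheme a T cell needs a second signal beside its antigen receptor. Cd80 and Cd86 are the B7 ligands that engage Cd28 to activate and Ctla4 to restrain, Icosl engages Icos, and Cd40 is the receptor for Cd40lg on helper T cells and signals through TRAF adaptors and NF-kB. Cd274 and Pdcd1lg2 encode PD-L1 and PD-L2, the ligands of the inhibitory receptor PD-1 encoded by Pdcd1. Icam1 is the adhesion ligand of the integrin made from Itgal and Itgb2, Cd83 is a maturation marker of dendritic cells, and Slamf1 and Slamf7 are self-binding receptors of the SLAM family. Resting macrophages carry little of several of these proteins and raise them after microbial stimulation.

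Each array had 53.4% to 58.0% of its non-control spots well above background and 0 saturated spots, and all 4 lay on 1 slide with 1 scan time. Levels are given as log2 of the processed intensity relative to the array's 75th percentile, so that a level belongs to 1 probe. Levels of different probes were compared only to take the brightest probe of a gene and in the summed levels of cell type markers. The labels of the lines disagree between the deposited sources. Across probes, the value table's column for each culture had a Spearman rho of 1 with the scanner file of the other line under the same treatment, and of 0.969 with its own scanner file. Lines are named here as on the scanner files, and under the value table's labels the line effects over both media of 6 of the 7 members tested change sign (Cd80, close to 0, keeps it). The AEPS effect over both lines averages the lines, so a swap of their labels cannot change it. Of 10 macrophage markers, 9 were well above background on all 4 arrays, and Mertk was so on none. Their summed level was 9.51 to 9.69 on the log2 scale, and its largest part was Csf1r, with levels of 8.36 to 8.92. Of 6 B cell markers, 4 were well above background on none, Ms4a1 among them, while Cd79a and Cr2 were on all 4 arrays. Among T cell markers Cd3g and Cd8a were well above background on none, while Cd3e, Cd4, Lck and Cd5 were on all 4, with summed levels of 2.98 and 3.10 in DMEM and 3.11 and 3.09 under AEPS. The summed level of dendritic cell markers was 1.88 and 1.30 in DMEM and 3.99 and 3.65 under AEPS. Most of this sum was Itgax, with levels of 1.73 and 0.96 in DMEM and 3.82 and 3.55 under AEPS. Ccr7, Cd209a and Xcr1 were well above background on no array. Of 5 tested, 2 were called higher under AEPS and 0 lower, against 7.4% and 7.29% of all genes tested. These were Zbtb46 by 3.28 and Itgax by 2.34 (limma adjusted p = 0.0398 and 0.0109). Flt3 (-0.12), Clec9a (0.72) and Fscn1 (0.68) were not called. The part of these cell type markers in the results was not tested. A signal from a whole culture cannot tell more RNA per cell from more cells that carry it.

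Most of the costimulatory and coinhibitory genes that were measured rose under AEPS. The 5 genes Cd40, Icosl, Cd274, Cd83 and Icam1 rose by 4.08-fold to 70.3-fold over both lines, and 0 members fell. The count is of 7 members that entered the test by being well above background on 2 or more arrays, and 6 of the 7 had an unadjusted limma p under 0.05, as had 33.9% of all genes tested. Over all 22338 genes tested, limma called 7.4% higher and 7.29% lower at an adjusted p of 0.05. The median AEPS effect was 3.59 on the log2 scale among the 7 members tested and 0.07 among all genes tested. Of the remaining members, Cd86 was well above background on 1 array, and Slamf1 and Slamf7 on none. The model has 1 residual degree of freedom, which holds how unequally the lines responded. Each treatment has 2 arrays, 1 per line, and no label names a repeated culture, so p-values reflect nothing beyond the scatter of these 4 arrays, which may be technical. Without a filter on dim genes, which brings 36082 genes into the fit, limma called 3 members, and Cd40 and Icam1 had adjusted p = 0.0525 and 0.0996.

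**Figure D1:**
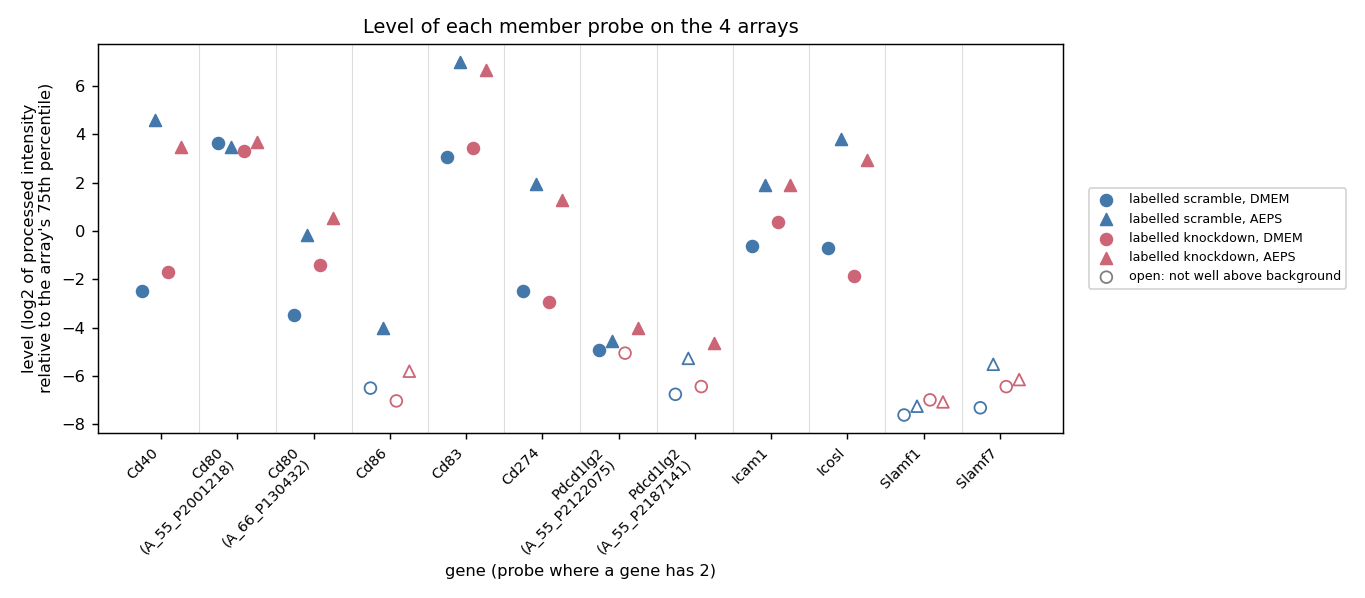
Level of each of the 12 probes (log2 of processed intensity relative to the array's 75th percentile) on the arrays labelled scramble (blue) and knockdown (red), in DMEM (circles) and under AEPS (triangles), with open symbols for spots not well above background. For Cd40, Icosl, Cd274, Cd83 and Icam1 both triangles lie above both circles, the first probe of Cd80 is level, and Slamf1 and Slamf7 are open throughout.

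Cd40, the receptor that takes the helper signal, had the largest AEPS effect of the group. Its probe (mm9 chromosome 2, 164897085 to 164897144) had levels in DMEM of -2.49 on the array labelled scramble and -1.71 on that labelled knockdown, and levels under AEPS of 4.59 and 3.48. Both AEPS arrays lay far above both DMEM arrays. Over both lines Cd40 rose 70.3-fold, a log2 effect of 6.14 ± 0.50 (SE; limma adjusted p = 0.0127), the effect ranked 28 from the top among the 22338 genes tested. It was 135-fold higher under AEPS on the arrays labelled scramble and 36.5-fold higher on those labelled knockdown.

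Icosl, the B7 family ligand of Icos, rose with a smaller spread between the lines than Cd40. Its probe (chromosome 10, 77542211 to 77542270) had levels of -0.71 and -1.87 in DMEM and 3.79 and 2.94 under AEPS, each time with the array labelled scramble first. The treatments did not overlap, and within each treatment the array labelled knockdown was the lower. The effect was 4.65 ± 0.14 (SE; limma adjusted p = 0.00612), or 25.2-fold, rank 94 from the top. Its response was 28.1-fold on the arrays labelled knockdown and 22.6-fold on those labelled scramble. This order turned with the normexp background, at 4.22 and 4.29 on the log2 scale.

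Cd80, the shared B7 ligand of Cd28 and Ctla4, was read by 2 probes that did not give the same result. The brighter probe A_55_P2001218 (chromosome 16, 38486772 to 38486831) had levels of 3.62 and 3.32 in DMEM and 3.47 and 3.68 under AEPS. These treatments overlapped, and the effect was 0.10 ± 0.17 (SE; limma adjusted p = 0.695), with a sign that turns under quantile normalization (-0.0193). The dimmer probe A_66_P130432 (chromosome 16, 38479343 to 38479402) was well above background on all 4 arrays and had levels of -3.48 and -1.39 in DMEM and -0.18 and 0.55 under AEPS. Here both AEPS arrays lay above both DMEM arrays. With each probe tested by itself, a setting chosen after seeing the data in which limma called 6.89% of 31268 probes higher and 6.86% lower, this probe rose by 2.62 ± 0.37 (SE; limma adjusted p = 0.0303). It was 9.86-fold higher under AEPS on the arrays labelled scramble and 3.83-fold higher on those labelled knockdown. The sequence of the probe that rose is given because the call for Cd80 turns on it; it runs on the plus strand of mm9, has 60 bases and holds 0 stop codons in its first frame.
Cd80 probe A_66_P130432: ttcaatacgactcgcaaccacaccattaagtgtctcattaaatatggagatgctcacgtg
Such a gap between probes was rare on these arrays. Among 5142 genes with 2 or more probes well above background on all 4 arrays, the median range between probes in the AEPS effect was 0.18 on the log2 scale. Cd80 had a range of 2.51, and 12 of these genes, or 0.233%, had one at least as large, Cd80 included. Genes that hardly respond cannot show such a range, and the median AEPS effect over all genes tested was 0.07. The share among genes with a strongly rising probe was not computed. Exon and UTR annotation in mm9 was not used here, so which Cd80 transcripts each probe reads was not analysed.

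**Figure D2:**
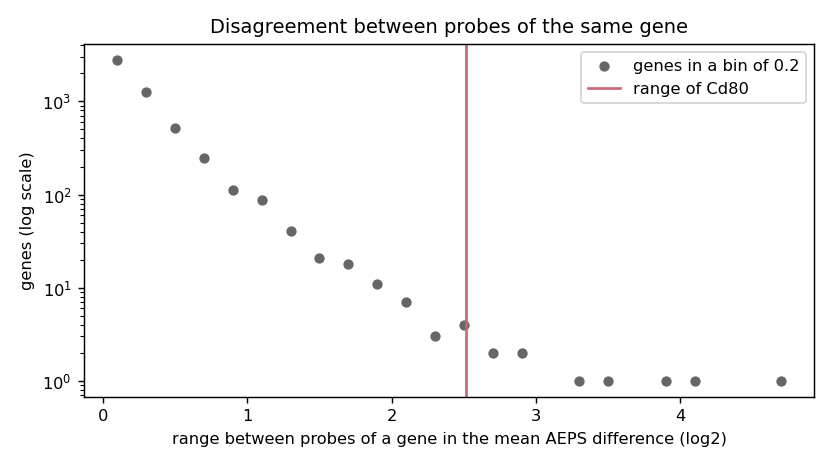
Number of genes (log scale) in bins of 0.2 by the range between their probes in the mean AEPS difference of both lines (log2), for 5142 genes with 2 or more probes well above background on all 4 arrays. The line marks Cd80 at 2.51, in the sparse tail of the distribution.

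Cd86, the other B7 ligand of Cd28, stayed near background. Its 1 probe (chromosome 16, 36603961 to 36604020, minus strand) was well above background only on the array of scramble under AEPS, with a level of -4.00. The other levels were -6.50 for scramble in DMEM and, for knockdown, -7.03 in DMEM and -5.80 with AEPS, none of them well above background. The value of -7.03 is a surrogate, the fill-in for a dim spot, and not a measured level. Against the lowest signal well above background on its array, Cd86 was at least 2.59-fold higher under AEPS on the arrays labelled scramble, and with the normexp background the bound was 0.68 on the log2 scale, under 2-fold. It did not enter the limma fit.

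Cd83, the maturation marker, had levels of 3.08 and 3.42 in DMEM and 6.999 and 6.67 under AEPS (probe on chromosome 13, 43898276 to 43898335). Again the treatments did not overlap. Cd83 rose 12.0-fold, a log2 effect of 3.59 ± 0.21 (SE; limma adjusted p = 0.0081). The responses were 15.2-fold on the arrays labelled scramble and 9.53-fold on those labelled knockdown.

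Of the ligands of PD-1, Cd274 was called higher, while Pdcd1lg2 had the same direction near background and was not called. Cd274 (probe on chromosome 19, 29462363 to 29462422) had levels of -2.48 and -2.96 in DMEM and 1.94 and 1.29 under AEPS, and it rose by 4.33 ± 0.12 (SE; limma adjusted p = 0.00605), or 20.2-fold. Its responses in the lines were 21.4-fold and 19.0-fold, and the treatments did not overlap. Pdcd1lg2, its direct neighbour among the protein-coding genes of chromosome 19, lay close to background. The probe A_55_P2122075 (29545470 to 29545529) had levels of -4.94 and -5.05 in DMEM and -4.57 and -4.00 under AEPS, of which the array of knockdown in DMEM was not well above background. Both AEPS levels lay above both DMEM levels, but the AEPS effect of 0.71 ± 0.21 (SE) did not pass the test (limma adjusted p = 0.105). The probe A_55_P2187141, which shares 57 of 60 bases of position with the first, was well above background only on the array of knockdown under AEPS, with levels of -6.76 and -6.44 in DMEM and -5.27 and -4.65 under AEPS. Its AEPS levels also lay above its DMEM levels, most of them below the limit of detection used here. With the mean of both probes Pdcd1lg2 had an effect of 1.17 and limma adjusted p = 0.0298, so its call turns on how the probes are combined.

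Icam1, the adhesion ligand, had the smallest effect among the members called. Its probe (chromosome 9, 20832290 to 20832349) had levels of -0.64 and 0.37 in DMEM and 1.88 and 1.91 under AEPS. The DMEM arrays differed from each other, the AEPS arrays were nearly level, and the treatments did not overlap. Icam1 rose by 2.03 ± 0.28 (SE; limma adjusted p = 0.0274), or 4.08-fold, and without the line in the model the limma adjusted p was 0.0627. The responses were 5.74-fold on the arrays labelled scramble and 2.90-fold on those labelled knockdown.

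The SLAM receptors of the group gave no usable signal. Slamf1 (chromosome 1, 173730343 to 173730402) held a surrogate value, the fill-in for dim spots, on all 4 arrays, so its values have no order. Slamf7 (chromosome 1, 173562534 to 173562593, minus strand) had processed intensities of 3.70 and 5.06 in DMEM and 11.1 and 6.33 under AEPS, none of them well above background. No fold is given for either gene.

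**Figure D3:**
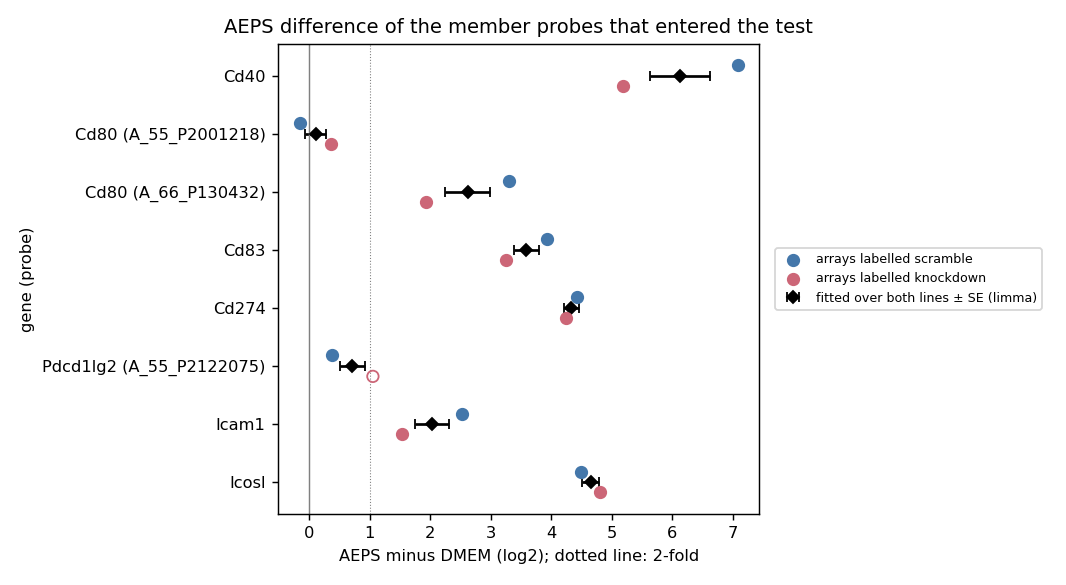
AEPS minus DMEM on the log2 scale for the 8 member probes that entered the test, on the arrays labelled scramble (blue) and knockdown (red), with the effect fitted over both lines and its SE (black) from the fit of each probe by itself. Open circles mark a difference in which 1 array was not well above background, and the lines differ most for Cd40, at 7.08 and 5.19.

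Promoter windows from RefSeq (build GRCm38.p6, 250 bases before to 50 after the start) were at hand for 7 of the 10 members, and not for Cd40, Cd83 and Cd86. The windows were searched on both strands for the NF-kB consensus, the RelA-type NF-kB motif GGAANTTCC and the interferon response element core (GAAA, any 2 bases, GAAA). The STAT motif TTCNNNGAA and an AP-1-like motif, TGANTCA with any base at its centre, were searched in the same way. Those of Icam1, Cd274 and Pdcd1lg2 are shown, 2 for genes that rose and 1 for the neighbour of Cd274 that did not pass the test, all on the plus strand at chr9:21015690-21015989, chr19:29367188-29367487 and chr19:29410669-29410968. Capitals mark motif matches, in Icam1 the RelA-type motif and then the STAT motif, in Pdcd1lg2 the NF-kB consensus, and Cd274 has none.
Icam1: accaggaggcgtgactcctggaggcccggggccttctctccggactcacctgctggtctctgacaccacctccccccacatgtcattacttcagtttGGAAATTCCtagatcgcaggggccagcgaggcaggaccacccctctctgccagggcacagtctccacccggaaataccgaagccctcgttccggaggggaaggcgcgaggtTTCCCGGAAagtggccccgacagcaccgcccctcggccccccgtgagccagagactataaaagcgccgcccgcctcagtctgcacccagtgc
Cd274: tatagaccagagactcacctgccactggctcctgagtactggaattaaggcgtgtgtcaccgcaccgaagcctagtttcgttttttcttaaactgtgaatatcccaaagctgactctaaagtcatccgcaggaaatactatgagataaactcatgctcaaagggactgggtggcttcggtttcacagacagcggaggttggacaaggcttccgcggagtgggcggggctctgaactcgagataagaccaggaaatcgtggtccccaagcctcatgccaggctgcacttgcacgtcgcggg
Pdcd1lg2: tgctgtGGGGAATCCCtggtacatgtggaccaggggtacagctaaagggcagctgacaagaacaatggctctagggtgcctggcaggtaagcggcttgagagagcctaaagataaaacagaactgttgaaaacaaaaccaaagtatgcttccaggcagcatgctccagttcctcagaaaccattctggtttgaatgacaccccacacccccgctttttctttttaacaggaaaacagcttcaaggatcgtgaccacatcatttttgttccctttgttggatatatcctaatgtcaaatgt
In Icam1 the RelA-type match lay 153 to 145 bases and the STAT match 42 to 34 bases before the start, and in Pdcd1lg2 the consensus match lay 244 to 235 bases before it. Each of these matches reads on both strands at the same position, and none overlaps another. The AP-1-like motif was found as TGATTCA in Cd80 and as TGACTCA in Slamf7, 42 to 36 bases before the start in both. The interferon element core was found in 0 of the 7 windows. Of 32851 promoter windows of the same length, 4.51% held the NF-kB consensus, 0.928% the RelA-type motif and 3.44% the interferon core. The STAT motif was in 8.30% and the AP-1-like motif in 7.81%. A match describes letters and not a bound site. Cd274 and Icosl hold none of the 5 motifs in these windows, and Cd40 and Cd83 have no window here. A part of these motifs in the AEPS response was not tested.

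On the arrays labelled scramble, 6 members were at least 2-fold higher under AEPS, Cd86 by its bound, and 0 lower, where 6.69% of 23521 genes were higher and 5.22% lower. In the line labelled knockdown 5 were higher and 0 lower, against 4.64% and 3.49% of 22331 genes. The median difference was 3.92 among the 7 members measured on both arrays labelled scramble and 3.75 among 6 on those labelled knockdown, and 0.07 and 0.05 among all genes. With 1 array in each group these differences have no test. The lines were then set against each other in response size, as the log2 AEPS difference in the line labelled knockdown less that of the line labelled scramble. This was -1.89 for Cd40, -0.98 for Icam1, -0.67 for Cd83, -0.17 for Cd274 and 0.32 for Icosl. It was 0.51 for the brighter Cd80 probe and -1.36 for the dimmer one. For Icosl the sign turned with the normexp background, to -0.0638. By the brightest probe of each gene, Cd40 alone among the 6 members measured on all 4 arrays was past 1 in size. Of 20336 genes, 1.63% lay at -1 or below and 0.526% at 1 or above. The dimmer Cd80 probe, at -1.36, is outside this count. For Cd40 both ends contributed, since the array labelled knockdown was 0.78 higher in DMEM and 1.11 lower under AEPS, the latter 2.16-fold. For Icam1 the difference lay in DMEM, where the array labelled knockdown was 2.01-fold higher, against 0.02 on the log2 scale under AEPS. The dimmer Cd80 probe was 4.25-fold higher on the array labelled knockdown in DMEM and 1.65-fold higher under AEPS.

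Between the lines at each treatment, few members differed 2-fold. In DMEM, the array labelled knockdown had Icam1 higher and Icosl 2.25-fold lower, where 2.36% of 23064 genes were higher and 1.51% lower. With the normexp background neither reached 2-fold, at 0.91 and -0.85 on the log2 scale. Under AEPS, Cd40 was lower and no member was higher, where 2.69% of 22791 genes were lower and 1.85% higher. Cd274 was 1.57-fold and Icosl 1.80-fold lower there, and Cd83 differed by -0.33 on the log2 scale. Over both media limma called 0 of 7 members higher in the line labelled knockdown and 0 lower, where 0.398% of all genes tested were called higher and 0.34% lower. At an unadjusted limma p under 0.05 there were 2 members, and 14.6% of all genes tested. Those 2 were Icosl, with a difference of -1.01 ± 0.14 (SE; limma adjusted p = 0.106), and Cd274, with -0.56 ± 0.12 (SE; limma adjusted p = 0.197). In DMEM and under AEPS alike, both had the lower level in the line labelled knockdown. Icosl passed with the normexp background (limma adjusted p = 0.0093), with only genes well above background on all 4 arrays (0.0473) and with an intensity trend in the variance (0.00315), and Cd274 only with the intensity trend (0.0483). Under the value table's labels these genes are higher in the knockdown line.

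The genes around the group were taken from lists written with earlier results of these data known, and their counts stand beside the 7.4% higher and 7.29% lower over all genes tested. A single call among a few genes is near that share. Of the 8 T cell receptors and partners of the members, Cd40lg, Ctla4 and Sh2d1a were well above background on no array, and 5 were tested, of which 2 rose and 1 fell. The inhibitory receptor gene Pdcd1 had levels of 4.40 and 1.99 in DMEM and 6.00 and 4.24 under AEPS, so that each AEPS array lay above the DMEM array of its line. It rose by 1.92 ± 0.20 (SE; limma adjusted p = 0.0184). Pdcd1 was 2.08 lower on the log2 scale on the arrays labelled knockdown without passing the test (limma adjusted p = 0.0656). The integrin chain gene Itgb2 rose by 1.01, and Icos fell by 0.93.

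Among 12 tested genes of other B7 and checkpoint ligands 3 rose and 2 fell, with Lgals9, the galectin ligand of Havcr2, up by 2.52, the nectin-like ligand gene Pvr up by 1.51 and the B7 family gene Cd276 down by a log2 difference of -1.39. The costimulatory ligands of the TNF superfamily rose in 2 of 3 tested cases with 0 lower, Tnfsf15 by 6.01 and the 4-1BB ligand gene Tnfsf9 by 2.33. Cd70 was well above background only for scramble under AEPS. Of 7 tested SLAM relatives and adaptors 1 rose and 1 fell. Slamf8, well above background only under AEPS and so tested through those arrays alone, was at least 4.47-fold higher there (limma adjusted p = 0.0246 on the measured values), and Cd84 fell by 0.89. Among 5 tested adhesion ligands Icam5 rose by 1.19 and 0 fell, with Vcam1 well above background on no array.

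The CD40 signalling and NF-kB list had 8 of 14 genes higher and 0 lower, led by the adaptor gene Traf1, which rose by 3.64 ± 0.24 (SE; limma adjusted p = 0.00955), the inhibitor gene Nfkbia by 2.64 and the NF-kB subunit gene Rel by 2.27. On the list of interferon signalling, known to act on Cd274, 4 of 12 rose and 0 fell. Ifnb1, well above background only under AEPS and tested through those arrays, was at least 86.1-fold higher there (limma adjusted p = 0.00795 on the measured values). Irf9 rose by 2.09 and the kinase gene Jak2 by 1.73, while Irf1 had 1.46 without passing (limma adjusted p = 0.127). Of the MHC class II genes, which present the antigen, 1 of 6 tested was called higher and 2 lower. The higher one was H2-Eb1, well above background only under AEPS and so tested through those arrays alone. Its bound there was at least 1.99-fold, short of 2-fold. The limma adjusted p of 0.0136 is on the measured values and rests on DMEM values not well above background. H2-DMb1 fell by 0.88 and H2-Oa, well above background only in the line labelled scramble, by 0.61, and H2-Aa, H2-Ab1 and their regulator Ciita were well above background on no array. Macrophage markers rose in 1 of 9 tested cases and fell in 0, Cd14 going from levels of 6.70 and 6.77 in DMEM to 8.28 and 8.18 under AEPS (limma adjusted p = 0.0127), and T and B cell markers had 0 called of 4 and 0 of 2, with 0.173 for Cd79a as the lowest limma adjusted p. Limma was the only test run on these lists, which share their arrays with the members.

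**Figure D4:**
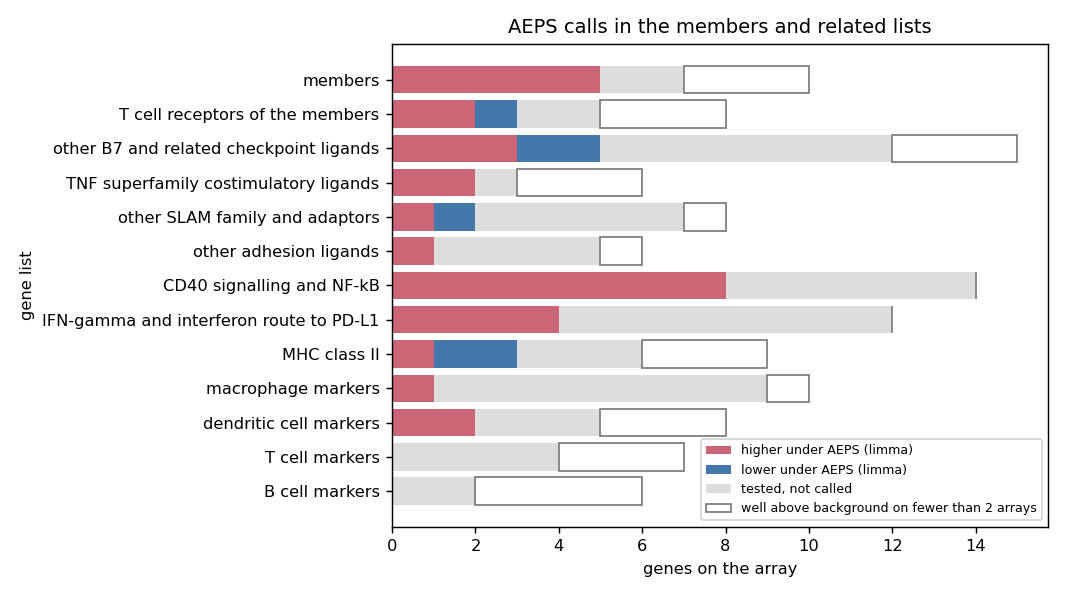
Number of genes on the array in the group and in 12 related lists (horizontal axis), divided into those higher under AEPS (red), lower (blue), tested and not called (grey), and well above background on fewer than 2 arrays (white), by limma over both lines. The members have 5 higher of 7 tested and the CD40 signalling list 8 of 14.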

How the data were processed

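1-colour Cy3 arrays measured total RNA from 4 cultures of RAW264.7, 1 array each. Per the file headers, the deposited scanner files hold spot intensity on a linear scale from Agilent Feature Extraction 10.7.1.1, background-subtracted and detrended within each array, with surrogate values for dim spots and no scaling between arrays. Coordinates of probes are mm9, per the file headers. The deposited value table holds the authors' log2 values, made by steps not given in the sources used here, and served as an alternative only.

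Processed intensities were put on the log2 scale, less the 75th percentile of the non-control spots on that array. Outlier spots (164 to 231 an array) were left out and spots of a probe averaged. A gene took its brightest probe, and its name was updated through a RefSeq gene table (GRCm38.p6) by accession for 26571 probes, symbol for 2601 and synonym for 492, and 26005 kept the name of the design. Limma 3.58.1 (R 4.3.3) fitted line and treatment as additive terms to the 22338 genes that 2 or more arrays had well above background. Adjusted p-values are Benjamini-Hochberg, called under 0.05. The residual had 1 degree of freedom and the prior added 2.82. Pairs of arrays were compared by size, at 2-fold or by a bound that reached 2-fold. For a bound, the dim spot counts at its own value or, if higher, at its array's lowest signal well above background. The fit was tested on simulated data. No array was repeated, and the number of arrays limits the precision. The members, the lists and the rule for naming genes, which takes all members and up to 3 genes a list with the largest called AEPS effect, were chosen with earlier results of these data known; Cd70, Vcam1, Irf1, Zbtb46 and other genes named beyond that rule were chosen after their values were seen. Alternatives were the normexp background, quantile normalization, the mean over probes, the value table, other filters, an intensity trend and models with 1 factor, and, added after seeing the data, single probes and the table with its columns renamed.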

Additional observations from a re-analysis of the deposited data

Results flagged for a closer look

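The brighter Cd80 probe had AEPS differences of opposite sign in the lines, -0.15 on the log2 scale for scramble and 0.36 for knockdown, as the arrays are labelled. This difference between the lines was not tested, each line has 1 array per treatment, and both values are under 2-fold. The dimmer Cd80 probe, which the rule of 1 probe per gene leaves out of the gene's value, was higher under AEPS than in DMEM by 3.30 for scramble and by 1.94 for knockdown.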

How the results depend on the processing

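No pairing by replicate number was possible because each group has 1 array and all carry replicate number 1, so no replicate number could serve as a block. The line term of the additive fit already sets AEPS against DMEM within each line, and without that term 4 members were called higher under AEPS. Without 1 array the additive fit has 0 residual degrees of freedom. Cd40, Cd83, Cd274, Icosl and Icam1 kept a positive AEPS effect over both lines in every alternative run, from 1.88 for Icam1 to 6.14 for Cd40. For these genes of 1 probe, the filters, the trend, the model without the line and the mean over probes cannot change the estimate itself. Only the normexp background, quantile normalization and the value table could move it. The members called higher were 3 without a filter on dim genes, and 4 to 7 in the others. Cd80 had -0.0193 with quantile normalization and 1.36 (limma adjusted p = 0.0211) with the mean over probes. The members called lower on the arrays labelled knockdown over both media were 1 with the normexp background, 1 with genes well above background on all 4 arrays and 2 with an intensity trend. With the normexp background 0 members were 2-fold higher and 0 lower in DMEM between the lines. Under the value table's own labels the line effects over both media were 0.16 for Cd40, -0.0872 for Cd83, 0.58 for Cd274, -0.20 for Pdcd1lg2, -0.53 for Icam1 and 0.98 for Icosl. In DMEM they were -1.01 for Icam1 and 1.20 for Icosl, and under AEPS 1.03 for Cd40, with 1 member higher and 0 lower. The difference in response was 1.74 for Cd40, again with 1 member higher and 0 lower. Cd80 had line effects of 0.0224 with quantile normalization, 0.0227 with the table's columns renamed and 0.68 with the mean over probes, and Cd83 had -0.0572 with the normexp background. The cause of these changes was not tested, apart from the swapped labels.

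Over all genes, limma called 1653 higher and 1629 lower under AEPS, against 271 and 32 without a filter, 2524 and 2576 with normexp, 3621 and 3073 with an intensity trend, and 735 and 583 without the line. Between the lines it called 89 and 76, against 419 and 322 with normexp, 580 and 707 with the trend, 187 and 150 with genes well above background on all 4 arrays, and 0 and 0 without a filter or without the treatment. With normexp, 2-fold counts fell from 1574 and 1227 to 1002 and 733 on the arrays labelled scramble, from 1036 and 780 to 704 and 386 on those labelled knockdown, from 544 and 348 to 193 and 143 in DMEM and from 422 and 612 to 152 and 335 under AEPS. Differences in response numbered 107 and 331, 26 and 191 with normexp, and 300 and 112 under the table's labels. Quantile normalization moved the median of all genes on the arrays labelled scramble from 0.06 to -0.05.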

Other observations

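The nearest genes on either side of the members that the RefSeq gene table lists as protein-coding, examined after the members' values were seen, numbered 18 without the members themselves. Of these 14 were tested, and limma called 2 higher and 1 lower under AEPS, with a median effect of 0.26 on the log2 scale. Over all genes tested 7.4% were called higher and 7.29% lower, so these counts are near that share. Dnmt3l, which encodes a cofactor of DNA methyltransferases and lies next to Icosl, rose by 2.64 ± 0.13 (SE; limma adjusted p = 0.00736). Jarid2, a Polycomb cofactor gene next to Cd83, rose by 2.31 ± 0.14 (SE; limma adjusted p = 0.0087), and Cd84, next to Slamf1, fell by 0.89. The genes beside Cd274, namely Plgrkt at 0.30 and Pdcd1lg2 at 0.71, and Icam4 beside Icam1 at 0.28 did not pass the test.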
